A study of Mus musculus with 6 samples.

Results

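Sphingolipid digestion and ceramide metabolism were followed through 10 enzyme genes in the small intestine of mice, out of 45777 genes in the deposited table. The genes were picked by name: Enpp7 and Asah2, whose products act at the brush border, and Asah1, Smpd1, Smpd2, Sgms1, Sphk1, Sphk2, Sgpl1 and Cers6, whose products act inside cells. Enpp7 and Asah2 were included because they stood out in these same libraries, in the same contrast, so their fold changes describe the data and carry no test. All 10 genes passed the filter on low counts.

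The study set 3 libraries labelled as PKCzeta overexpression against 3 labelled as GFP control. PKCzeta, the product of Prkcz, is one of the atypical protein kinases C, and GFP is the green fluorescent protein commonly used as an inert control. The titles of all 6 libraries share the prefix DIO, which the labels do not explain, and the labels give neither the mice's strain and age, nor the segment of intestine, nor how the genes were delivered. They also do not say that each library is a separate animal, so the spread between libraries may be partly technical. Total RNA was depleted of ribosomal RNA and sequenced with a kit that keeps strand.

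Total counts lay between 77573133 and 87572356 in the PKCzeta-labelled libraries and between 85411847 and 93742978 in the GFP-labelled ones. Mitochondrial genes took 2.92% to 9.19% of the counts in PKCzeta-labelled libraries and 3.37% to 10.7% in GFP-labelled libraries. Prkcz itself was no higher under the PKCzeta label. It had 82.5, 100.1 and 57.0 CPM (read counts per unit of library size) in the PKCzeta-labelled libraries, against 70.5, 98.6 and 96.9 CPM in the GFP-labelled libraries. Its log2 fold change was -0.15 (SE 0.24), so every direction below is one between libraries labelled PKCzeta and libraries labelled GFP. Correlation of log2 CPM across genes was 0.959 to 0.969 over the 6 pairs of libraries with the same label and 0.953 to 0.977 over the 9 pairs with different labels.

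Sphingomyelin reaches the gut in food and in shed cells. Alkaline sphingomyelinase, encoded by Enpp7, sits on the microvilli and splits it into ceramide and phosphocholine, and neutral ceramidase, encoded by Asah2, then splits ceramide into a fatty acid and sphingosine, which enterocytes take up. Inside cells, acid sphingomyelinase (Smpd1) and acid ceramidase (Asah1) do the same work in lysosomes, Cers6 joins a fatty acid to a sphingoid base to make ceramide, and Sgms1 turns ceramide into sphingomyelin in the Golgi. The sphingosine kinases Sphk1 and Sphk2 make sphingosine 1-phosphate (S1P), and the S1P lyase Sgpl1 cleaves it irreversibly, the exit from the pathway.

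The sequences upstream of both brush border genes are shown beside those of Sgms1, the next gene to Asah2 on the chromosome, and Sgpl1, the intracellular member with the lowest fold change. They are RefSeq sequences of GRCm38.p6, the 250 bases before an annotated transcript start, written 5′ to 3′ in the direction of transcription, and are reference sequence, not sequence from these mice. Capitals mark matches on either strand to GATAA (the core recognised by GATA factors), CAAAGTC (found in HNF4 sites), TATAAA (the TATA box) and GGGCGG (the GC box). The Enpp7, Asah2 and Sgpl1 windows adjoin the end of the annotated gene, whereas the Sgms1 window is 1 of 4 for that gene and lies inside its span, before an alternative transcript start. No marked match overlapped another.
Enpp7, chr11:118987931-118988180, plus strand: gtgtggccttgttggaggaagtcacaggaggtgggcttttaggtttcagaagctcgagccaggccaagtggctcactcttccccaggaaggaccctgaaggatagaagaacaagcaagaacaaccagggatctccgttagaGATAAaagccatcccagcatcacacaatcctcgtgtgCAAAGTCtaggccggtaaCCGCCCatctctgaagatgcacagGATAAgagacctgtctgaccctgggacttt
Asah2, chr19:32103141-32103390, minus strand: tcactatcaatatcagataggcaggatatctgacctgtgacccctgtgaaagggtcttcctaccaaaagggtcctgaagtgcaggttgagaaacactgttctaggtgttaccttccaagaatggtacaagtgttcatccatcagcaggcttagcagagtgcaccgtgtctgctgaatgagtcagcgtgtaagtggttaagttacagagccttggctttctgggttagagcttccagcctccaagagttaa
Sgms1, chr19:32388513-32388762, minus strand: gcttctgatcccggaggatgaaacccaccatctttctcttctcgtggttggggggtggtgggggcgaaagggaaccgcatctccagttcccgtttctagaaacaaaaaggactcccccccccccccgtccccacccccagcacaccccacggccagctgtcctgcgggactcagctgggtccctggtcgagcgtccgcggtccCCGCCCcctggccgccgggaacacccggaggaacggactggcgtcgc
Sgpl1, chr10:61147685-61147934, minus strand: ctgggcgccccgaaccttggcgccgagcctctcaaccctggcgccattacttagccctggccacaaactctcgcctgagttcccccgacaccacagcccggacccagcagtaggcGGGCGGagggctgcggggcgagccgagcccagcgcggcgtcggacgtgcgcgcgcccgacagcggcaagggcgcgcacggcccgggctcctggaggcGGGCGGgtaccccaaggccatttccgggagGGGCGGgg
The Enpp7 window held 2 GATAA matches, 109 and 30 bases before the start, 1 CAAAGTC match 72 bases before it and 1 GC box on the reverse strand. The Asah2 window held no match to any of the 4 motifs. Among 32851 windows of this length, 22.6% held GATAA, 3.84% held CAAAGTC, 12.4% held TATAAA and 32.7% held GGGCGG. A match describes letters only, and its absence says nothing about a factor.

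The content of CG pairs varied widely between the windows. There were 5 CG dinucleotides in the Enpp7 window and 2 in the Asah2 window, beside a median of 6 over all windows. The 4 Sgms1 windows held 19, 41, 3 and 8, and the Sgpl1 window held 31. The other members' 15 windows, several of them alternative starts of 1 gene, held 3 to 41, and 5 of them held GATAA, 7 GGGCGG, 1 TATAAA and 0 CAAAGTC. The third Sgms1 window had 3 GATAA matches. The motifs were chosen after these sequences had been read, and Asah1 is named only.

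Enpp7 had the greatest difference of the 10 members. Its level was 63.8, 171.9 and 36.3 CPM in the PKCzeta-labelled libraries 2-1, 4-1 and 4-2, against 561.8, 713 and 319 CPM in libraries 1-1, 1-4 and 3-1 of the GFP label. All 3 PKCzeta-labelled libraries lay below all 3 GFP-labelled ones, and library 4-1 stood above the other PKCzeta-labelled libraries. The means were 90.7 ± 71.7 CPM under the PKCzeta label and 531 ± 199 CPM under the GFP label (SD, n = 3 each), a 5.86-fold lower mean. The log2 fold change, PKCzeta minus GFP, was -2.55 (SE 0.59). Without the PKCzeta-labelled library 4-1 it was -3.41.

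Asah2, the enzyme of the next step, was also lower. It had 178.1, 187 and 151 CPM in the PKCzeta-labelled libraries, against 593.8, 541 and 310.3 CPM in the GFP-labelled libraries. The PKCzeta-labelled libraries were close together, with a coefficient of variation of 11.0%, against 31.3% in the GFP-labelled libraries, where 3-1 was the lowest. The means were 172 ± 19 CPM for the PKCzeta label and 482 ± 151 CPM for the GFP label (SD, n = 3 each). The log2 difference in the fit was -1.49 (SE 0.26). Counts behind these levels were large: at least 3798 reads for Enpp7 and at least 15210 for Asah2 in any library, so counting error is small beside the spread between libraries.

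The pair did not differ in strict proportion. The TPM ratio of Enpp7 to Asah2 was 0.882, 2.26 and 0.594 in the PKCzeta-labelled libraries and 2.33, 3.25 and 2.53 in the GFP-labelled libraries. Library 4-1 of the PKCzeta label came close to the GFP-labelled 1-1, and the other PKCzeta-labelled libraries held less Enpp7 than Asah2 transcript. TPM corrects for transcript length and so allows levels of different genes to be set side by side.

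**Figure D1:**
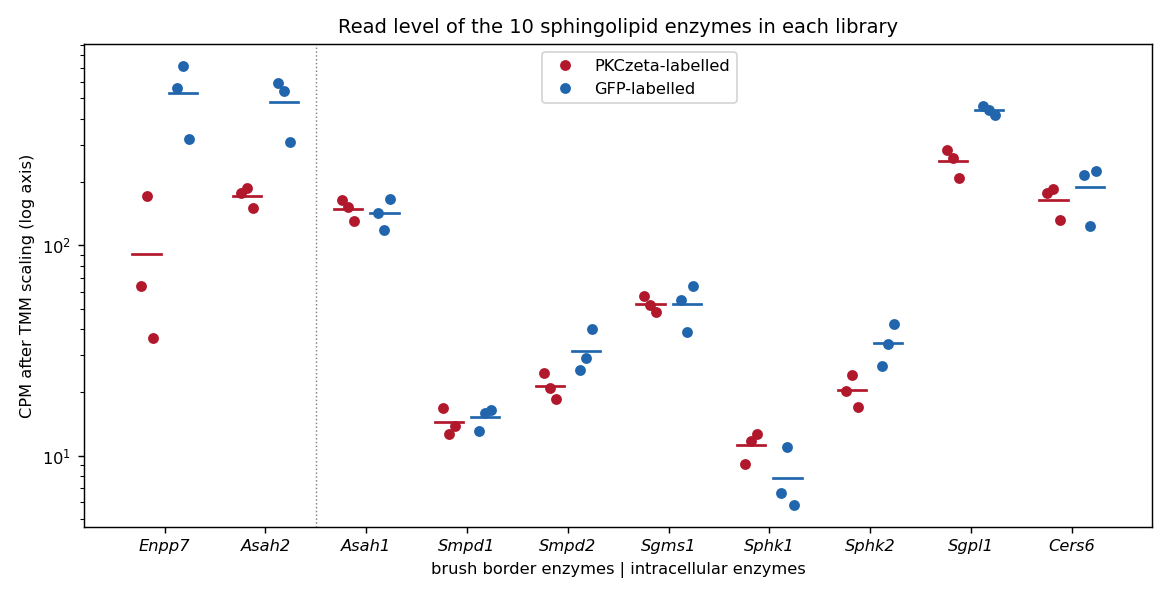
Level of each of the 10 enzymes in every library, in CPM after TMM scaling on a log axis, with PKCzeta-labelled libraries left of GFP-labelled ones for each gene. Points are libraries and lines are means over 3. Enpp7, Asah2, Smpd2, Sphk2 and Sgpl1 have PKCzeta-labelled points that all lie below the GFP-labelled ones.

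Among the intracellular members, Sgpl1, the S1P lyase, differed most. It had 285.4, 260.3 and 209.7 CPM in the PKCzeta-labelled libraries, against 459.4, 440.3 and 416.6 CPM in the GFP-labelled libraries. Both groups were tight and apart. The fitted log2 difference was -0.80 (SE 0.17), a 1.74-fold lower mean. The TPM ranges did not overlap either, at 83.5 ± 2.71 TPM under the PKCzeta label and 125.6 ± 13.6 TPM under the GFP label (SD, n = 3 each).

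The kinases upstream of the lyase differed from each other in sign. Sphk2 had 20.2, 24.3 and 17.0 CPM in PKCzeta-labelled libraries, against 26.8, 33.8 and 42.2 CPM in GFP-labelled libraries, with a log2 fold change of -0.74 (SE 0.22). Its CPM ranges did not overlap, but its TPM ranges did. Sphk1, the member with the lowest level, had 9.16, 11.7 and 12.7 CPM in PKCzeta-labelled libraries and 6.66, 11.0 and 5.84 CPM in GFP-labelled libraries, and its log2 fold change was 0.52 (SE 0.29) with overlapping ranges. Sphk2 shares 2536 bases with the ribosomal protein gene Rpl18 and 741 with Dbp in the RefSeq annotation. Rpl18 ran at 214 to 361 CPM over the 6 libraries, far above Sphk2, with a log2 fold change of 0.09. How strand was treated in counting is not stated in the labels, so the Sphk2 values are uncertain.

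Of the sphingomyelinases inside the cell, Smpd2 differed without overlap and Smpd1 overlapped. Smpd2, a neutral sphingomyelinase, had 24.7, 20.9 and 18.6 CPM in PKCzeta-labelled libraries, against 25.5, 29.0 and 40.0 CPM in GFP-labelled libraries, with a log2 fold change of -0.56 (SE 0.22). The closest libraries of the groups, 2-1 under PKCzeta and 1-1 under GFP, were less than 1 CPM apart. Smpd1, the lysosomal enzyme, had 16.9, 12.7 and 13.8 CPM in PKCzeta-labelled libraries and 13.1, 15.98 and 16.5 CPM in GFP-labelled libraries, and the groups overlapped (log2 fold change -0.07, SE 0.20).

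The remaining 3 intracellular genes had overlapping CPM ranges. Asah1, the lysosomal counterpart of Asah2, had 164, 152.3 and 129.9 CPM in PKCzeta-labelled libraries and 142.8, 118.9 and 167 CPM in GFP-labelled libraries (log2 fold change 0.06, SE 0.18). The annotation places Asah1 over 8464 bases of Frg1, which ran at 23.2 to 30.3 CPM. Sgms1, the sphingomyelin synthase, had 57.6, 51.9 and 48.0 CPM in PKCzeta-labelled libraries and 55.1, 38.7 and 63.8 CPM in GFP-labelled libraries. Its log2 fold change was -0.00 (SE 0.21). Cers6, the ceramide synthase, had 177, 184.8 and 132.3 CPM in PKCzeta-labelled libraries and 214.9, 123.7 and 226.7 CPM in GFP-labelled libraries (log2 fold change -0.20, SE 0.25).

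Of the 10 members, 5 were lower with ranges that did not overlap: both brush border genes and 3 of the 8 intracellular ones. None was higher in that sense. Over all 18456 genes tested, 10.4% had ranges that did not overlap, 5.66% lower and 4.72% higher. A log2 fold change below -1 was found for 1.89% of all genes tested and for 2 of the 10 members, Enpp7 and Asah2. Because members were chosen on this contrast, nothing is read from these shares. The mean log2 fold change of the brush border genes minus that of the intracellular genes was -1.79. On the TPM scale, where the median log2 difference of all genes was 0.14 with a pseudocount of 1, Asah1 and Sgms1 were higher under the PKCzeta label with ranges that did not overlap, and Sphk2 overlapped.

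Asah2 and Sgms1 are neighbours on chromosome 19, at 31984646-32103140 and 32122727-32389885, both on the minus strand and 19586 bases apart, with no RefSeq gene between them. The values for the pair differed: -1.49 for Asah2 and -0.00 for Sgms1. The other members are spread over the genome: Enpp7 lies on chromosome 11 at 118988181-118993221, Sgpl1 on chromosome 10 at 61098642-61147684 and Smpd2 on the same chromosome at 41487172-41490370.

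Levels per transcript length put the intracellular and brush border genes in a different order under each label. In the PKCzeta-labelled libraries the order of mean TPM was Asah1 (90.5 ± 3.30), Sgpl1 (83.5 ± 2.71), Enpp7 (62.75 ± 49.6), Asah2 (48.9 ± 4.58), Cers6 (30.6 ± 3.25), Sgms1 (20.1 ± 1.23) and Smpd2 (18.02 ± 0.460). Smpd1 and Sphk2 followed at 8.21 each and Sphk1 at 7.48 (SD, n = 3). In the GFP-labelled libraries Enpp7 came first at 325.8 ± 141.8 TPM, then Sgpl1 (125.6 ± 13.6), Asah2 (119 ± 42.7), Asah1 (74.1 ± 7.002), Cers6 (29.5 ± 6.995), Smpd2 (22.8 ± 4.10), Sgms1 (16.8 ± 2.90), Sphk2 (11.0 ± 2.13), Smpd1 (7.41 ± 0.960) and Sphk1 (4.44 ± 2.15). Under the PKCzeta label the SD of Enpp7 spans the levels of its neighbours from Asah1 down to Smpd2, and Smpd1, Sphk2 and Sphk1 lie within each other's spread. Under the GFP label the neighbours within each other's spread (means ± SD that overlap) are Sgpl1 with Asah2, Asah2 with Asah1, Cers6 with Smpd2, Smpd2 with Sgms1, and Smpd1 with Sphk1.

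**Figure D2:**
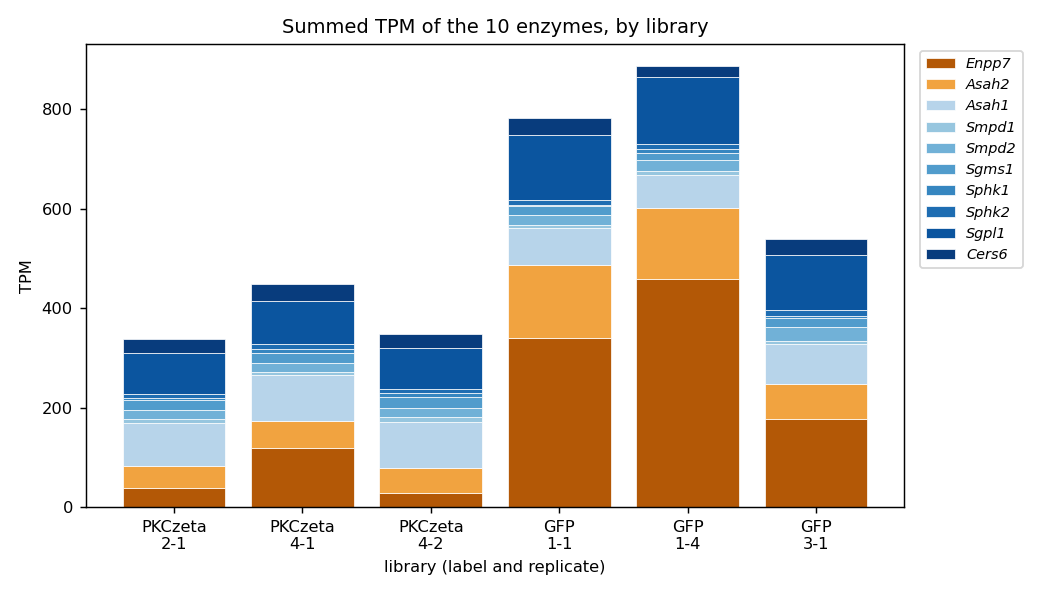
Summed level of the 10 enzymes in each library in TPM, stacked by gene, with PKCzeta-labelled libraries left of GFP-labelled ones. The brush border share runs from 22.8% to 38.5% in PKCzeta-labelled libraries and from 45.8% to 67.8% in GFP-labelled ones.

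The summed level of the 8 intracellular enzymes was 255.2, 275.5 and 268.9 TPM in PKCzeta-labelled libraries and 296.3, 285.6 and 293 TPM in GFP-labelled libraries. These groups were apart, but with geometric means within 1.09-fold of each other. The sum joins genes that differed in opposite directions. Sgpl1 averaged 83.5 TPM under the PKCzeta label and 125.6 TPM under the GFP label, whereas Asah1 averaged 90.5 and 74.1 TPM. The summed level of Enpp7 and Asah2 was 82.7, 172.7 and 79.6 TPM in PKCzeta-labelled libraries, against 486.3, 601.3 and 247.2 TPM in GFP-labelled libraries, a 3.99-fold lower geometric mean. The brush border pair thus made up 28.6% ± 8.62 of the 10-gene sum under the PKCzeta label and 58.6% ± 11.4 under the GFP label (SD, n = 3 each). The share was lowest in 4-2 among PKCzeta-labelled libraries and in 3-1 among GFP-labelled ones.

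Ratios of enzymes that act on the same substrate or in successive steps follow from these levels. The ratio of neutral to acid ceramidase transcript, Asah2 over Asah1, was 0.507, 0.573 and 0.541 in PKCzeta-labelled libraries, against 1.94, 2.12 and 0.869 in GFP-labelled libraries. The ratio of alkaline to acid sphingomyelinase, Enpp7 over Smpd1, was 4.65, 16.7 and 3.25 in PKCzeta-labelled libraries, against 52.9, 55.0 and 23.8 in GFP-labelled libraries. Acid ceramidase thus exceeded neutral ceramidase in all 3 PKCzeta-labelled libraries and in 1 GFP-labelled library. The ratio of the lyase to both kinases was 7.03, 4.80 and 4.70 in PKCzeta-labelled libraries and 10.6, 7.37 and 7.05 in GFP-labelled libraries, and the ranges came within 0.1 of each other. This ratio includes Sphk2, so it shares the uncertainty of the Sphk2 values.

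Enpp7 and Asah2 are enterocyte genes, so the values of other enterocyte genes are given beside them. All 12 enterocyte markers had a log2 fold change below 0, with a median of -0.87, but 0 passed the adjusted threshold in edgeR, 8 had an unadjusted p under 0.05 and 6 had ranges that did not overlap. Their summed level was 20640 to 42470 CPM in PKCzeta-labelled libraries and 50650 to 60830 CPM in GFP-labelled libraries. All 10 genes of brush border structure were also below 0, with a median of -0.42. Vil1 is counted in both of these lists. The brush border structure genes summed to 7860 to 12250 CPM in PKCzeta-labelled libraries, against 13610 to 15820 CPM in GFP-labelled libraries. Over all tested genes 45.7% were below 0, and the median was 0.04. Of these genes, 3.07% were lower at an unadjusted p under 0.05 in edgeR, and 5.66% were lower with ranges that did not overlap. Of the 8 general epithelial markers, 6 were below 0, with a median of -0.27, and 2 were lower with ranges that did not overlap. Their sum overlapped between the labels, at 9027 to 10390 CPM in PKCzeta-labelled libraries and 8518 to 11630 CPM in GFP-labelled libraries. In bulk tissue, fewer cells of a type and less RNA per cell cannot be told apart, and the part of enterocyte content in the Enpp7 and Asah2 values was not tested.

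Enpp7 and Asah2 were also set against single epithelial genes. These genes had log2 fold changes of their own: -0.44 for Vil1, -0.96 for Alpi and -0.31 for Epcam. Each percentage therefore also reflects the level of its reference gene. As a percentage of Vil1, the gene of the microvillus protein villin, Enpp7 was 2.87, 6.84 and 1.84 in PKCzeta-labelled libraries and 20.2, 18.8 and 12.6 in GFP-labelled libraries. Asah2 was 8.0, 7.45 and 7.63% of Vil1 in PKCzeta-labelled libraries, against 21.4, 14.2 and 12.2% in GFP-labelled libraries. Neither pair of ranges overlapped. As a percentage of Alpi, the brush border alkaline phosphatase, Enpp7 was 14.8, 40.9 and 13.0 in PKCzeta-labelled libraries and 87.1, 91.0 and 41.3 in GFP-labelled libraries, so library 4-1 nearly met library 3-1. Asah2 was 41.3, 44.5 and 53.8% of Alpi in PKCzeta-labelled libraries and 92.0, 69.1 and 40.1% in GFP-labelled libraries, with ranges that overlapped. The fitted log2 difference in CPM was -2.55 for Enpp7 and -1.49 for Asah2. For Enpp7, the log2 ratio of geometric means was -2.35 relative to Vil1, -1.79 relative to Alpi and -2.47 relative to Epcam. For Asah2, these ratios were -1.01, -0.46 and -1.13. Relative to the summed epithelial markers, the ratio was -2.64 for Enpp7 and -1.3 for Asah2. The fit and the geometric means are different measures, so the size of the gap between them is not read. The Sgpl1 percentages of Vil1, Alpi and the epithelial gene Epcam overlapped, for Epcam only between 9.88 in PKCzeta-labelled 2-1 and 9.84 in GFP-labelled 3-1. As a percentage of the summed epithelial markers, Sgpl1 was 3.16, 2.83 and 2.02 in PKCzeta-labelled libraries, against 5.39, 3.8 and 3.58 in GFP-labelled libraries, which did not overlap.

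**Figure D3:**
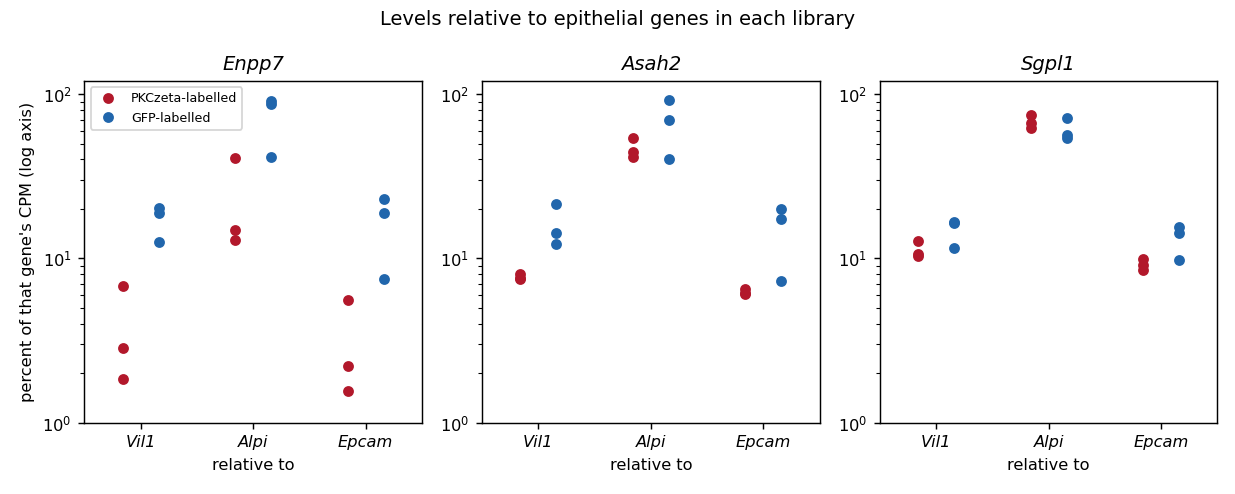
Enpp7, Asah2 and Sgpl1 in each library as a percentage of the CPM of Vil1, Alpi and Epcam, with PKCzeta-labelled libraries left of GFP-labelled ones. Points are libraries. The groups are apart for Enpp7 against all 3 genes and for Asah2 against Vil1 and Epcam, and they overlap for Asah2 against Alpi and for Sgpl1 against each gene.

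Genes known to differ along the length of the small intestine were high or low in some of the same libraries. Of 9 tested upper small intestine genes, 8 were below 0, at a median of -0.65. Fabp1, among these, is also counted as an enterocyte marker. The sum over the list was 422 to 843.1 CPM in PKCzeta-labelled libraries and 600.6 to 1780 CPM in GFP-labelled libraries. Gata4, a transcription factor of the upper intestine, had 1.12, 0.738 and 1.08 CPM in PKCzeta-labelled libraries, against 7.22, 9.70 and 1.79 CPM in GFP-labelled libraries. Lct, the lactase gene, had 3.20, 63.3 and 2.31 CPM in PKCzeta-labelled libraries and 115.8, 200.3 and 39.6 CPM in GFP-labelled libraries. Gata4 and Lct were picked from the list after their values were seen. Log2 fold changes over the tested genes of this list ran from -2.67 for Gata4 to 0.10 for Slc40a1. Library 4-1, the highest of the PKCzeta label for Enpp7, was the highest of its label for 5 of the 9 genes and the lowest for 3 (Gata4, Cybrd1 and Onecut2). Library 3-1, the lowest of the GFP label for Enpp7 and Asah2, was the lowest of its label for 7 of the 9, the highest for Slc40a1 and in the middle for Onecut2. Of the 8 ileal genes, 7 were below 0, with a median of -0.62 and overlapping sums, 6308 to 9393 CPM in PKCzeta-labelled libraries and 8484 to 12840 CPM in GFP-labelled libraries. Fabp6, the ileal bile acid binding protein, had 2820, 2544 and 2949 CPM in PKCzeta-labelled libraries and 2601, 3425 and 4215 CPM in GFP-labelled libraries, and was abundant under both labels. Log2 fold changes over the ileal list ran from -2.64 for Fgf15 to 0.28 for Slc10a2. Fgf15 had 118.5 CPM in GFP-labelled 3-1 and 4.97 to 21.9 CPM in the other libraries. Whether the pieces of intestine came from the same place is not given, and the part of position in these values was not tested.

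**Figure D4:**
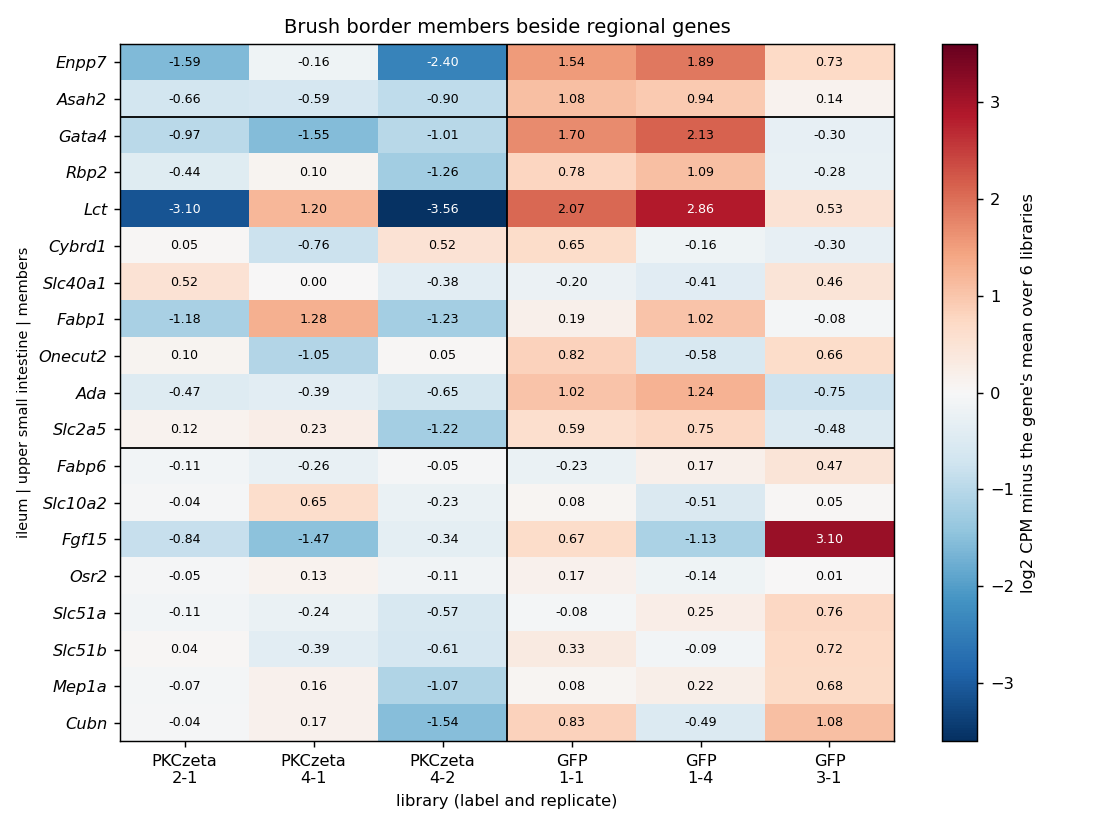
Deviation of log2 CPM from each gene's mean over the 6 libraries, for Enpp7 and Asah2 (top), genes of the upper small intestine (middle) and ileal genes (bottom), with PKCzeta-labelled libraries left of GFP-labelled ones. Enpp7 and Lct share their lowest libraries, PKCzeta-labelled 2-1 and 4-2, and their highest, GFP-labelled 1-4, whereas Gata4 is lowest in PKCzeta-labelled 4-1.

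Markers of other cells that a piece of gut can hold also varied. All 7 leukocyte markers had a log2 fold change above 0, with a median of 0.91, and their sum was 89.2 to 269.3 CPM in PKCzeta-labelled libraries and 69.3 to 131 CPM in GFP-labelled libraries. The 4 mesothelial markers, which mark the outer lining of the gut, summed to 1.67 to 3.33 CPM in PKCzeta-labelled libraries, against 6.15 to 15.5 CPM in GFP-labelled libraries, with a median log2 fold change of -2.08. Crypt markers summed to 5099 to 15260 CPM in PKCzeta-labelled libraries and 5110 to 17690 CPM in GFP-labelled libraries, with 5 of 7 above 0. Smooth muscle markers summed to 1023 to 1288 CPM in PKCzeta-labelled libraries and 637.5 to 1527 CPM in GFP-labelled libraries, with 7 of 7 below 0. Fibroblast markers summed to 295 to 496.5 CPM in PKCzeta-labelled libraries and 347.7 to 409 CPM in GFP-labelled libraries, with 4 of 6 below 0. The crypt, muscle and fibroblast sums thus overlapped between the labels. Pancreatic markers summed to under 5 CPM in every library, with Pnlip and Amy2a5 at 0. Liver markers summed to 8.08 to 9.82 CPM in PKCzeta-labelled libraries and 6.72 to 9.10 CPM in GFP-labelled libraries. The part of these cells in the members' values was not tested.

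The wider pathway was read from a list of 67 entries, of which 66 had a row in the table and 63 were tested. In edgeR's quasi-likelihood test, adjusted by the Benjamini-Hochberg method over all genes, 0 of the 63 passed an adjusted p of 0.05 in either direction, as 0% of all genes did, and the lowest was 0.858. Taking unadjusted p-values under 0.05, 6 were lower and 1 was higher, beside 3.07% of all genes lower and 2.41% higher. The list had 40 genes below 0 and 23 above, with a median log2 fold change of -0.11, against 0.04 over all genes, but on log2(TPM + 1) 24 of 63 were below 0 and the median was 0.07, against 0.14 over all genes. DESeq2 called 87 of the 18169 genes to which it gave an adjusted p, 39 of them lower. Of the 66 list genes with a row, it called 1, B4galt5, as lower.

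**Figure D5:**
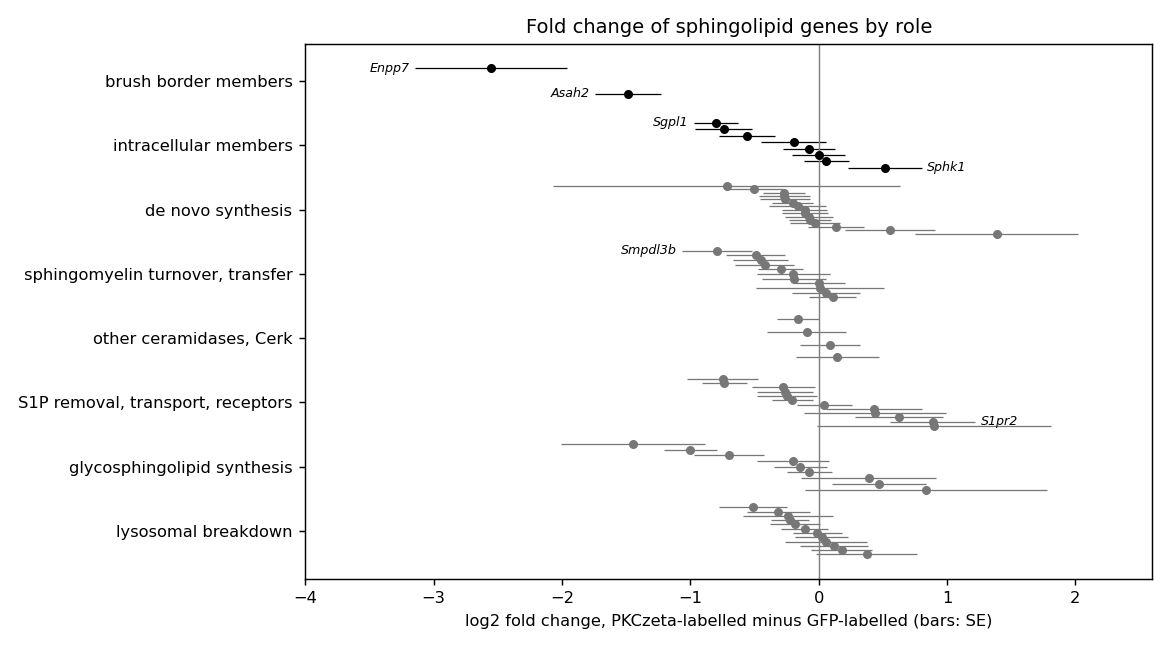
Log2 fold change, PKCzeta minus GFP, of the 10 members (black) and the 63 tested genes of the wider list (grey), ordered within each role. Points are edgeR estimates and bars are 1 SE. Enpp7 and Asah2 lie at -2.55 and -1.49, left of the other members. None of the 63 wider genes passed the adjusted threshold in edgeR, and the members carry no test.

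Sphingomyelin turnover and transfer had 7 tested genes below 0 and 4 above, with a median of -0.20. Smpdl3b, a lipid-modulating relative of acid sphingomyelinase on the plasma membrane, had 57.4, 54.8 and 30.2 CPM in PKCzeta-labelled libraries, against 101.9, 78.6 and 66.2 CPM in GFP-labelled libraries (fitted log2 difference -0.79, SE 0.27, edgeR adjusted p = 0.867). Its groups did not overlap in CPM but did in TPM. Smpdl3a, a secreted relative and the gene with the highest TPM of this role, averaged 132 ± 23.8 TPM under the PKCzeta label and 131.3 ± 12.5 TPM under the GFP label (SD, n = 3 each).

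De novo synthesis, the route that makes ceramide from serine and a fatty acid, had 12 tested genes below 0 and 3 above, with a median of -0.11. Its highest gene, Sptssa, a small subunit of serine palmitoyltransferase, averaged 157.4 ± 15.2 TPM under the PKCzeta label and 145.4 ± 7.49 TPM under the GFP label, with overlapping ranges. Of its 15 tested genes, 0 had an unadjusted p under 0.05. The other ceramidases and ceramide kinase split evenly, 2 below 0 and 2 above, with a median of -0.00. Cerk, the ceramide kinase, had the highest TPM of these and a log2 fold change of 0.09 (SE 0.23).

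In glycosphingolipid synthesis 3 of 9 tested genes were lower at an unadjusted p under 0.05, a level that 3.07% of all genes met, and 0 passed the adjusted threshold. Ugcg, the glucosylceramide synthase and first step of the branch, had 195.3, 171.1 and 136.2 CPM in PKCzeta-labelled libraries and 290.3, 171.5 and 351.8 CPM in GFP-labelled libraries, and a fitted log2 difference of -0.70 (SE 0.27, edgeR adjusted p = 0.878). The library 1-4 of the GFP label lay at the level of 4-1 of the PKCzeta label. B4galt5, the lactosylceramide synthase of the next step, had 41.0, 43.9 and 40.7 CPM in PKCzeta-labelled libraries, against 75.2, 66.4 and 109.3 CPM in GFP-labelled libraries, and a fitted log2 difference of -0.999 (SE 0.21, edgeR adjusted p = 0.858). These groups were apart. St3gal5, which adds sialic acid to lactosylceramide to make the ganglioside GM3, was below 1 CPM in every library (log2 fold change -1.45, SE 0.56). Over the role, 6 genes were below 0 and 3 above, with a median of -0.14.

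For S1P removal, transport and receptors, 6 genes were below 0 and 6 above, with a median of -0.08. Plpp1, a lipid phosphate phosphatase at the cell surface, had 28.3, 26.6 and 22.3 CPM in PKCzeta-labelled libraries, against 40.0, 49.6 and 39.1 CPM in GFP-labelled libraries (fitted log2 difference -0.74, SE 0.17, edgeR adjusted p = 0.858). Spns2, an S1P exporter, had 10.2, 7.26 and 5.50 CPM in PKCzeta-labelled libraries, against 13.0, 14.9 and 10.8 CPM in GFP-labelled libraries (log2 fold change -0.75, SE 0.28). The groups were apart in CPM for both genes, but in TPM they overlapped for Spns2. The S1P receptor gene S1pr2 was the 1 higher gene, with 4.46, 2.21 and 2.85 CPM in PKCzeta-labelled libraries, against 1.75, 1.89 and 1.501 CPM in GFP-labelled libraries (fitted log2 difference 0.89, SE 0.33, edgeR adjusted p = 0.871). Plpp2, a related phosphatase with the highest TPM of this role, averaged 146.1 ± 8.32 TPM under the PKCzeta label and 144.3 ± 14.3 TPM under the GFP label (SD, n = 3 each).

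Lysosomal breakdown of glycosphingolipids had 7 genes below 0 and 5 above, with a median of -0.06. Psap, the precursor of the saposins that present lipids to lysosomal hydrolases, had the highest TPM of the wider list, 279 ± 65.3 TPM under the PKCzeta label and 239.3 ± 60.8 TPM under the GFP label (SD, n = 3 each). Its log2 fold change in CPM was -0.01 (SE 0.19).

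The genes whose levels followed Enpp7 most closely were taken from 8023 genes with a mean of at least 10 CPM. By Pearson's r of log2 CPM over the 6 libraries, they were Tm4sf5 (0.995), Mttp (0.994), Tlcd2 (0.993), Aldh4a1 (0.991) and Creb3l3 (0.986). For Asah2 they were Skiv2l (0.986), Rapgef2 (0.984), Eps8 (0.976), Fam151a (0.974) and Eepd1 (0.972). These are descriptions over 6 points that share the label split and the libraries' depth. Mttp, the microsomal triglyceride transfer protein needed to build chylomicrons, had 1045, 1331 and 798 CPM in PKCzeta-labelled libraries, against 2120, 2170 and 1813 CPM in GFP-labelled libraries.

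The like genes had smaller differences than Enpp7, with 1 exception. Among the 5 genes like Enpp7, log2 fold changes ran from -1.41 for Aldh4a1 to -0.54 for Tlcd2. Among those like Asah2, Fam151a had -4.69 and the other 4 lay between -0.53 and -0.23. Eps8, an actin-capping protein of microvilli and one of the brush border structure genes, had -0.51. Enpp7 and Asah2 themselves had an r of 0.931, which placed Asah2 62nd for Enpp7 and Enpp7 32nd for Asah2 among the 8023 genes.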

How the data were processed

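Libraries were made from total RNA of mouse small intestine. The submitters' processing notes name the build mm10 and the tools HISAT2, StringTie, Trimmomatic and FastQC, without versions. The deposited table holds, per the file headers, counts, FPKM and TPM for each gene in each library. The deposited counts are whole and unscaled. The deposited FPKM values were not used, and the deposited TPM values served for levels between genes and for an alternative test. Of the table's sample columns, 0 had no matching sample.

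Counts were fitted with edgeR 4.0.16 in R 4.3.3: filterByExpr (18456 genes), TMM, a robust quasi-likelihood F test, two-sided, Benjamini-Hochberg adjustment over all genes, threshold 0.05. CPM are after TMM scaling, and the SE is the log2 fold change divided by the root of F. The biological coefficient of variation was 0.354. Alternatives used DESeq2 1.42.0, limma 3.58.1, other scalings and filters, TPM, a table without 758 rows (mitochondrial genes, ribosomal RNA and receptor segments), and each library left out.

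The members and gene lists were chosen with earlier results of these data known. Of the wider list, genes with an unadjusted p under 0.05 and the highest by TPM in each role are named. Genes of like pattern are the 5 with the highest r, without predicted gene models. Positions come from RefSeq (GRCm38.p6, the assembly of mm10), which matched 45675 of 45777 gene IDs. Upstream sequences were found for 9 of the 10 members.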

Additional observations from a re-analysis of the deposited data

How the results depend on the processing

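The values for Enpp7, Asah2 and the brush border genes minus the intracellular genes kept their sign in all 15 alternatives. Enpp7 and Asah2 were picked on this contrast and their CPM ranges did not overlap, so a kept sign adds no support. Leaving out 1 library at a time gave a log2 fold change of -3.41 to -2.16 for Enpp7, -1.72 to -1.31 for Asah2 and -2.23 to -1.59 for the difference between the classes; the first Enpp7 value is the one without PKCzeta 4-1. The other alternatives gave -2.55 to -2.32, -1.50 to -1.20 and -1.91 to -1.55. The number of genes past the adjusted threshold was 0 in the edgeR fit, with 1012 at an unadjusted p under 0.05, and 0 in every fit without 1 library, but 87 with DESeq2, of which 1 was in the wider pathway list; that list also gave 0 in every fit without 1 library. The cause was not tested. Among intracellular members, Smpd2, Sphk2 and Sgpl1 were below 0 and Sphk1 above 0 in all 15 alternatives, while Asah1, Smpd1, Sgms1 and Cers6 took both signs. No paired analysis was possible because the groups share no replicate number. Each label has 3 libraries. Groups of 3 were not examined for outlying libraries.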
